A study of Homo sapiens with 9 samples.

Results

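The 9 genes described here encode liver-derived plasma carriers and related proteins: the albumin family genes ALB, AFP, AFM and GC, the carrier pair TTR and RBP4, the cell-surface proteoglycan gene GPC3, and the fetuin pair AHSG and FETUB. They were chosen by name, with their values in these same libraries already known, so their levels and fold changes are given as a description and without a test. All 9 were found among the 58735 genes of the count and FPKM tables, 1 row each, in all 9 libraries. RNA was sequenced from the human hepatoma line Huh-7, whose wild-type cells served as the control, from Ako-3 cells, a Huh-7 line with an APOB knock out, and from Mko-3 cells, a Huh-7 line with an MTTP knock out, with 3 libraries labelled as biological replicates in each group. Each knockout line is 1 clone made with CRISPR/Cas9, and the clone, its handling and the targeted gene cannot be told apart. The labels describe the growth of Mko-3 cells apart from that of the other groups and name no batch, so a batch and the clone cannot be told apart in any comparison with Mko-3. Cells of all groups were grown in T75 flasks in DMEM with fetal bovine serum and held overnight in serum-free medium before RNA was taken with Trizol, and both knockouts were compared with the same 3 Huh-7 libraries.

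Serum albumin is the main protein of plasma and carries fatty acids, bilirubin and hormones, while α-fetoprotein is its fetal counterpart, silenced in the liver after birth and often expressed again in hepatocellular carcinoma. The GC product, the vitamin D-binding protein (VDBP), carries vitamin D metabolites and binds free actin, and afamin, the AFM product, carries vitamin E and Wnt proteins. Transthyretin transports thyroxine and holds the retinol-binding protein RBP4 in plasma, GPC3 is an oncofetal heparan sulfate proteoglycan used as a hepatocellular carcinoma marker, and the fetuins AHSG and FETUB belong to the cystatin superfamily.

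The labels of the libraries were checked against the targeted genes. APOB had 179, 235 and 258 FPKM in the Huh-7 libraries and 94.6, 83.6 and 84.5 FPKM in the Ako-3 libraries, and MTTP had 116, 111 and 121 FPKM in Huh-7 and 16.0, 16.6 and 15.3 FPKM in Mko-3. Each was lower in its own knockout than in every control library. Total counts ran from 14638727 to 20179760 per library, and mitochondrial genes took 5.52% to 6.17% of them in Huh-7, 7.06% to 7.40% in Ako-3 and 5.75% to 5.82% in Mko-3 libraries. All 8 hepatocyte markers outside the 9 genes were above 1 FPKM in each group. Of 17 markers of stromal, endothelial and immune cells, 13 or 14 were under 1 FPKM in each group and 3 to 6 had 0 counts in every library of a group. Their summed level was 161 to 175 FPKM in Huh-7, 201 to 219 in Ako-3 and 196 to 210 in Mko-3 libraries, most of it from LYZ, the lysozyme gene, with a mean of 155, 187 and 191 FPKM, and its part in the results was not tested.

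ALB, AFP and AFM lie head to tail on the plus strand of chromosome 4 (hg38), ALB at 73397114 to 73421412, AFP at 73431138 to 73456174 and AFM at 73481683 to 73504001. ALB and AFP are 9.72 kb apart and AFP and AFM 25.5 kb. GC lies on the minus strand at 71741693 to 71804041, 1593 kb before ALB. The promoters of the 3 adjacent genes are shown because they hold the same liver motif while their levels differ widely. RefSeq promoters (GRCh38.p14) matched 6 of the 9 genes. The RefSeq starts of ALB, AFP and AFM lie inside the gene intervals of the files. The 150 bases before the transcription start are given 5′ to 3′ on the gene's strand, with capitals marking GTTAAT, a motif known from liver gene promoters. The regions are chr4:73404137-73404286 for ALB, chr4:73436071-73436220 for AFP and chr4:73481595-73481744 for AFM, all on the plus strand.
ALB: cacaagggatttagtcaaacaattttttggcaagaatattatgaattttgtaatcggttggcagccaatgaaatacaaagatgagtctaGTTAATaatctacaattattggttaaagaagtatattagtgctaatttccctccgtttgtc
AFP: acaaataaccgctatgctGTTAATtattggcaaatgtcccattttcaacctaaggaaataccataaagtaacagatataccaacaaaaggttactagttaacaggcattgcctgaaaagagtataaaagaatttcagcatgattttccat
AFM: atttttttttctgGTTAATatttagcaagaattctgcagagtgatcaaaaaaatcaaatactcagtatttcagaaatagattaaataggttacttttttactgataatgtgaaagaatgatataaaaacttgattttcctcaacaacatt

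GTTAAT was searched on both strands of the 250 bases before each start. It stood 61 bases before the start of ALB, 132 before that of AFP and 137 before that of AFM, each on the gene's own strand, and in no other of the 9 promoters searched, where AHSG has 1, FETUB 2 and RBP4 3. Of 35116 promoters of the same length, 6.23% hold it. TATAAA, the TATA box, stood 29 bases before AFP, 30 before AFM, 30 before a FETUB start and 31 before an RBP4 start, also 225 and, on the other strand, 227 bases before a further RBP4 start, and in 10.7% of all promoters. CCAAT was found in ALB on both strands, in AFP, in a FETUB and in an RBP4 promoter, and in 32.0% of all promoters. CAAAGTCCA, an HNF4 core, was found in AHSG, 179 bases before the start, and in 0.325% of all promoters, and TGANTCA, the AP-1 site, in an RBP4 promoter and in 6.57% of all. TTGCGCAA, a C/EBP core, was in none of these windows and in 0.131% of all promoters. A match describes letters in the window and not a bound site.

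The levels of the 9 genes spanned more than 3 orders of magnitude. Compared per length, as FPKM, the order in Huh-7 cells was ALB, AFP, RBP4, GPC3, AHSG, GC, TTR, FETUB and AFM, with no overlap between neighbours in that order. In Ako-3 cells GC stood before AHSG, and these overlapped, as did FETUB and AFM. In Mko-3 cells AFP and ALB overlapped at the top, with means of 1840 and 1833 FPKM, GC and GPC3 overlapped next after RBP4, and AFM stood above FETUB. Together the 9 genes took 1.57% ± 0.05 of all counts in Huh-7, 1.66% ± 0.04 in Ako-3 and 1.52% ± 0.04 in Mko-3 cells (SD, n = 3 each).

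**Figure D1:**
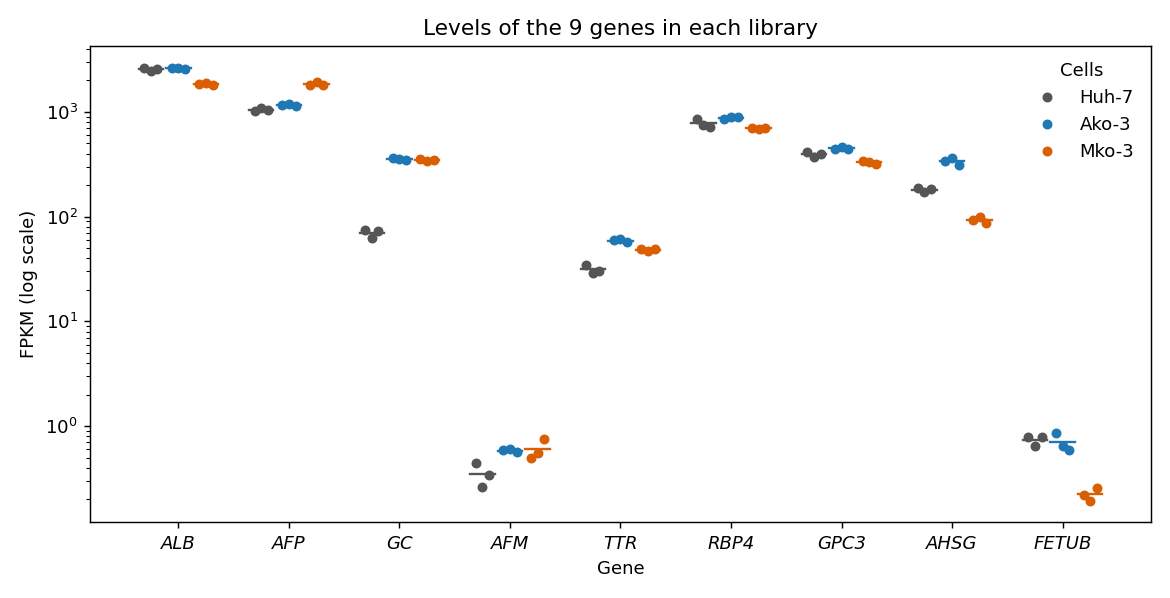
Level of each of the 9 genes in FPKM (log scale) in the 3 libraries of Huh-7, Ako-3 and Mko-3 cells, each point a library and each bar a group mean. GC stands higher in all libraries of both knockouts than in Huh-7, ALB and AFP meet in Mko-3 cells, and AHSG is highest in Ako-3 and lowest in Mko-3 cells.

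All 9 genes passed the filter on low counts in each comparison. The thresholds were a log2 fold change of 1 or more in size together with an adjusted p no higher than 0.05. In Ako-3 against Huh-7 cells 1 of them was past both thresholds upward (GC), as were 3.52% of all 15787 genes tested, and 0 downward, as were 5.0%. In Mko-3 against Huh-7 cells 1 was past them upward (GC; 3.82% of all 15745 genes) and 1 downward (FETUB; 7.22%). In Mko-3 against Ako-3 cells 0 were past them upward (2.26% of all 15528 genes) and 2 downward (AHSG and FETUB; 3.47%). Since the genes were selected on these values, nothing is read from the counts.

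Groups that did not overlap in normalized CPM were common in these data. In Ako-3 against Huh-7 cells 7 of the 9 genes did not overlap, all 7 higher in Ako-3, beside 57.8% of all genes tested. In Mko-3 against Huh-7 cells all 9 did not overlap, 4 higher and 5 lower in Mko-3, beside 60.7%. In Mko-3 against Ako-3 cells 7 did not overlap, 1 higher and 6 lower in Mko-3, beside 49.6%. At the adjusted p alone the shares of all genes were 49.9%, 54.0% and 41.6% in these 3 comparisons, and 6, 8 and 7 of the 9 genes. The median log2 fold change of the 9 genes was 0.18, -0.16 and -0.34, and that of all genes tested was within 0.011 of 0 in each comparison. In bulk RNA, fewer cells that express a gene and less RNA per cell cannot be told apart.

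**Figure D2:**
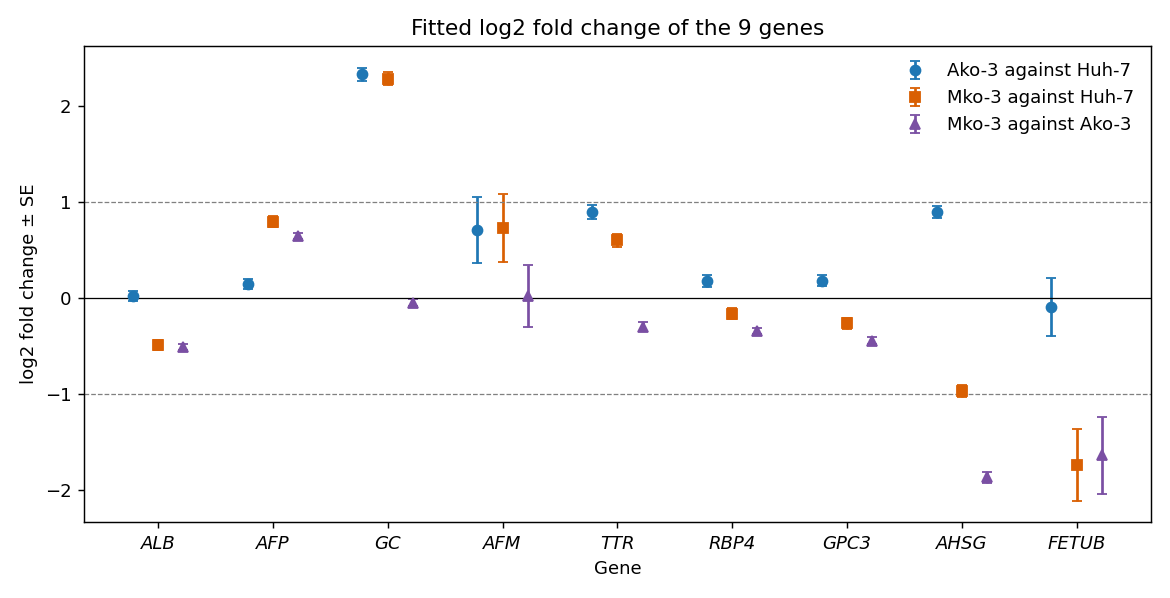
Fitted log2 fold change of the 9 genes with its standard error in Ako-3 against Huh-7, Mko-3 against Huh-7 and Mko-3 against Ako-3 cells, with dashed lines at 1 and -1. GC has 2.33 and 2.28 in the knockouts and -0.05 between them, and AHSG has 0.90 in Ako-3 and -0.96 in Mko-3.

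ALB (ENSG00000163631) had 2599, 2452 and 2590 FPKM in the Huh-7 libraries, 2605, 2644 and 2537 FPKM in Ako-3 and 1824, 1871 and 1803 FPKM in Mko-3. Huh-7 and Ako-3 libraries overlapped, and every Mko-3 library was below both. Its log2 fold change was 0.02 (SE 0.05) in Ako-3 and -0.49 (SE 0.05) in Mko-3 against Huh-7, a difference of -28.7% in Mko-3, and -0.51 (SE 0.03) in Mko-3 against Ako-3. The sign of the small Ako-3 value turned with upper quartile scaling, at -0.03, and without Huh-7 replicate 2, at -0.004. ALB was the 8th most abundant gene by FPKM in each Huh-7 library and between the 12th and 14th in the Mko-3 libraries.

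AFP (ENSG00000081051), the fetal member, went the other way in Mko-3 cells. It had 1025, 1077 and 1049 FPKM in Huh-7, 1169, 1191 and 1145 FPKM in Ako-3 and 1795, 1911 and 1815 FPKM in Mko-3 libraries. The groups did not overlap and stood in the order Huh-7, Ako-3, Mko-3. On the log2 scale AFP differed by 0.15 (SE 0.05) in Ako-3 and 0.80 (SE 0.05) in Mko-3 against Huh-7, or 1.74-fold, and 0.65 (SE 0.03) between the knockouts.

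Within a library the FPKM of AFP and ALB can be set against each other, and the scaling between libraries does not enter their ratio. For 100 FPKM of ALB there were 41.3 ± 2.33 FPKM of AFP in Huh-7, 45.0 ± 0.12 in Ako-3 and 100.4 ± 1.83 in Mko-3 cells (SD, n = 3 each). The control libraries, at 39.4, 43.9 and 40.5, lay below the Ako-3 libraries at 44.9, 45.1 and 45.1, and the Mko-3 libraries reached 98.5, 102.1 and 100.6. Of the summed FPKM of the 4 family members, ALB made up 69.4% and AFP 28.6% in Huh-7, 63.0% and 28.4% in Ako-3, and 45.6% and 45.8% in Mko-3 cells. The sum itself averaged 3668, 4118 and 4018 FPKM.

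GC (ENSG00000145321) had 74.7, 63.0 and 72.8 FPKM in Huh-7, 361.8, 356.8 and 343.8 FPKM in Ako-3 and 351.2, 338.1 and 344.1 FPKM in Mko-3 libraries. Both knockouts stood far above the control and overlapped with each other. The difference on the log2 scale was 2.33 (SE 0.07) in Ako-3, or 5.03-fold, and 2.28 (SE 0.07) in Mko-3, or 4.87-fold, and -0.05 (SE 0.04) between the knockouts. By FPKM, GC was the 469th to 588th gene in the Huh-7 libraries, the 63rd to 71st in Ako-3 and the 62nd to 66th in Mko-3. Against ALB there were 2.75 ± 0.16 FPKM of GC for 100 FPKM of ALB in Huh-7, 13.6 ± 0.21 in Ako-3 and 18.8 ± 0.64 in Mko-3 cells (SD, n = 3 each).

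**Figure D3:**
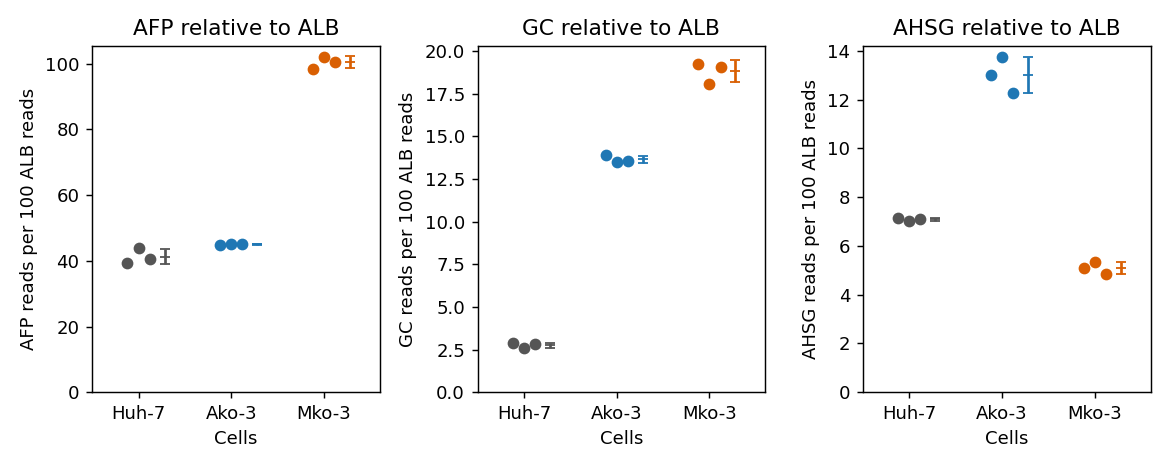
FPKM of AFP, GC and AHSG for 100 FPKM of ALB in each library of Huh-7, Ako-3 and Mko-3 cells. The group mean ± SD stands beside the points, and axes start from 0. The axis labels say reads, but the values are ratios of FPKM. AFP is close to ALB in FPKM in Mko-3 cells, GC is raised against ALB in both knockouts, and AHSG is raised in Ako-3 and lowered in Mko-3.

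AFM (ENSG00000079557), next to AFP on the chromosome, was close to the detection limit. Its raw counts were 19, 9 and 14 in Huh-7, 22, 27 and 22 in Ako-3 and 20, 22 and 26 in Mko-3 libraries, and its summed count of 42 in Huh-7 has an exact 95% Poisson interval of 30.3 to 56.8 that covers counting error only. The 71 counts of Ako-3 (55.5 to 89.6) and 68 of Mko-3 (52.8 to 86.2) come from similar totals. In CPM every knockout library lay above every control library. Fitted log2 fold changes were 0.71 (SE 0.35) in Ako-3 and 0.73 (SE 0.36) in Mko-3, and the Ako-3 value was 0.93 without Huh-7 replicate 1. AFM made up at most 0.019% of the summed FPKM of the family in a library.

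TTR (ENSG00000118271, chromosome 18, 31557010 to 31599021, plus strand), the thyroxine carrier, had 34.7, 29.2 and 30.6 FPKM in Huh-7, 59.4, 60.6 and 57.1 FPKM in Ako-3 and 48.7, 46.9 and 49.3 FPKM in Mko-3 libraries. The groups did not overlap, with the control lowest and Ako-3 highest. TTR differed by a log2 fold change of 0.90 (SE 0.07) in Ako-3 and 0.60 (SE 0.07) in Mko-3 against Huh-7, and -0.30 (SE 0.05) in Mko-3 against Ako-3.

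RBP4 (ENSG00000138207, chromosome 10, 93591687 to 93601744, minus strand), whose product is bound by transthyretin, had 849.6, 754.4 and 721.0 FPKM in Huh-7, 854.4, 900.0 and 890.4 FPKM in Ako-3 and 699.0, 693.1 and 707.4 FPKM in Mko-3 libraries. Ako-3 was highest and Mko-3 lowest, and Huh-7 replicate 1, at 849.6 FPKM, came close to the lowest Ako-3 library. Log2 fold changes were 0.18 (SE 0.06) in Ako-3 and -0.16 (SE 0.06) in Mko-3, and -0.34 (SE 0.03) between them. Without Huh-7 replicate 1 the RBP4 values were 0.25 in Ako-3 and -0.09 in Mko-3. For 100 FPKM of RBP4 there were 4.07 ± 0.19 FPKM of TTR in Huh-7, 6.70 ± 0.27 in Ako-3 and 6.90 ± 0.12 in Mko-3 cells (SD, n = 3 each). Neither knockout overlapped with the control in this ratio.

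GPC3 (ENSG00000147257, chromosome X, 133535745 to 133985895, minus strand) had 415.2, 371.7 and 395.3 FPKM in Huh-7, 445.6, 457.8 and 441.2 FPKM in Ako-3 and 339.1, 333.7 and 320.8 FPKM in Mko-3 libraries. The groups did not overlap. As log2 fold changes GPC3 had 0.18 (SE 0.06) in Ako-3, -0.26 (SE 0.06) in Mko-3 and -0.44 (SE 0.04) between them. GPC3 and AFP, both oncofetal markers, parted in Mko-3 cells. For 100 FPKM of AFP there were 37.6 ± 3.00 FPKM of GPC3 in Huh-7, 38.4 ± 0.23 in Ako-3 and 18.0 ± 0.77 in Mko-3 (SD, n = 3 each).

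AHSG (ENSG00000145192, chromosome 3, 186612923 to 186621318, plus strand), fetuin-A, an inhibitor of ectopic calcification, differed most between the knockouts. It had 185.8, 171.9 and 184.4 FPKM in Huh-7, 339.0, 363.7 and 311.2 FPKM in Ako-3 and 92.9, 99.8 and 87.4 FPKM in Mko-3 libraries. No groups overlapped. This gave log2 fold changes of 0.90 (SE 0.06) in Ako-3, or 1.86-fold, -0.96 (SE 0.06) in Mko-3, a difference of -48.8%, and -1.86 (SE 0.06) in Mko-3 against Ako-3. The Mko-3 value passed 1 in size without Mko-3 replicate 2, at -1.01, and with upper quartile scaling, at -1.03. For 100 FPKM of ALB there were 7.09 ± 0.07 FPKM of AHSG in Huh-7, 13.0 ± 0.75 in Ako-3 and 5.09 ± 0.24 in Mko-3 cells (SD, n = 3 each).

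FETUB (ENSG00000090512), fetuin-B, starts 14.7 kb after AHSG on the same strand, at 186635969 to 186653141, and was close to the detection limit. Its raw counts were 30, 20 and 29 in Huh-7, 29, 26 and 21 in Ako-3 and 8, 7 and 8 in Mko-3 libraries. Huh-7 and Ako-3 overlapped, and Mko-3 lay below both. The summed count of 23 in Mko-3 has an exact 95% Poisson interval of 14.6 to 34.5. The sums were 79 in Huh-7 (62.5 to 98.5) and 76 in Ako-3 (59.9 to 95.1). Each interval pools the libraries of a group and covers counting error only, so it is given as a description and not as a test. FETUB had a log2 fold change of -0.10 (SE 0.30) in Ako-3, -1.73 (SE 0.37) in Mko-3 and -1.64 (SE 0.40) between them. AC068631.1, a minus-strand gene that overlaps both fetuin genes, had 12 to 71 counts per library, so reads of it and of FETUB cannot be told apart where the counting did not use strand, which is not given in the sources used here. AC068631.1 itself fell in both knockouts, with log2 fold changes of -1.44 in Ako-3 and -1.84 in Mko-3 (adjusted p = 0.00015 and 1.1e-05 from edgeR with Benjamini-Hochberg adjustment). No other overlapping gene had more than 33 counts in a library.

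The genes around the family on chromosome 4 were not used in the choice of the 9 genes. Of 92 other genes within 2 Mb of the span from GC to AFM, 27 were tested in each comparison. In Ako-3 cells 1 was upregulated (3.52% of all genes) and 4 were downregulated (CXCL8, CXCL3, EREG and AREG; 5.0%), with a median log2 fold change of -0.19. In Mko-3 cells 3 were upregulated (SLC4A4, NPFFR2 and CXCL6; 3.82%) and 3 downregulated (SULT1B1, ADAMTS3 and EREG; 7.22%), with a median of 0.10. The call of CXCL3 in Ako-3 was lost without Huh-7 replicate 1 or Ako-3 replicate 2, at -0.85 and -0.96, and that of SULT1B1 in Mko-3 without Mko-3 replicate 3, at -0.80. EREG lost its Mko-3 call without Huh-7 replicate 1, Mko-3 replicate 1 or Mko-3 replicate 2, at -1.39, -1.35 and -1.35. SLC4A4, a bicarbonate cotransporter gene and the nearest expressed gene before GC, rose by 1.19 in Mko-3 (adjusted p = 1.2e-09) and had -0.41 in Ako-3 (adjusted p = 0.0074, edgeR with Benjamini-Hochberg adjustment). Between GC and ALB, NPFFR2, a neuropeptide receptor gene at 0.27 mean CPM in Huh-7 and 1.13 in Mko-3, rose by 2.02 in Mko-3 (adjusted p = 0.0013, edgeR) and was not tested in Ako-3. ADAMTS3, a procollagen protease gene, fell by 1.13 in Mko-3 (adjusted p = 0.020) and had 0.15 in Ako-3 (adjusted p = 0.75, edgeR), and its call was lost without Huh-7 replicate 3, Mko-3 replicate 1 or Mko-3 replicate 2, at -0.84, -0.89 and -1.16. COX18, a mitochondrial membrane insertase gene, and ANKRD17, which also lie there, had -0.31 and 0.30 in Ako-3 and -0.31 and 0.30 in Mko-3, short of the fold threshold. CXCL8, the interleukin-8 gene and the nearest expressed gene after AFM, fell by 1.29 in Ako-3 (adjusted p = 1.2e-11) and had 0.02 in Mko-3 (adjusted p = 0.82, both edgeR).

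**Figure D4:**
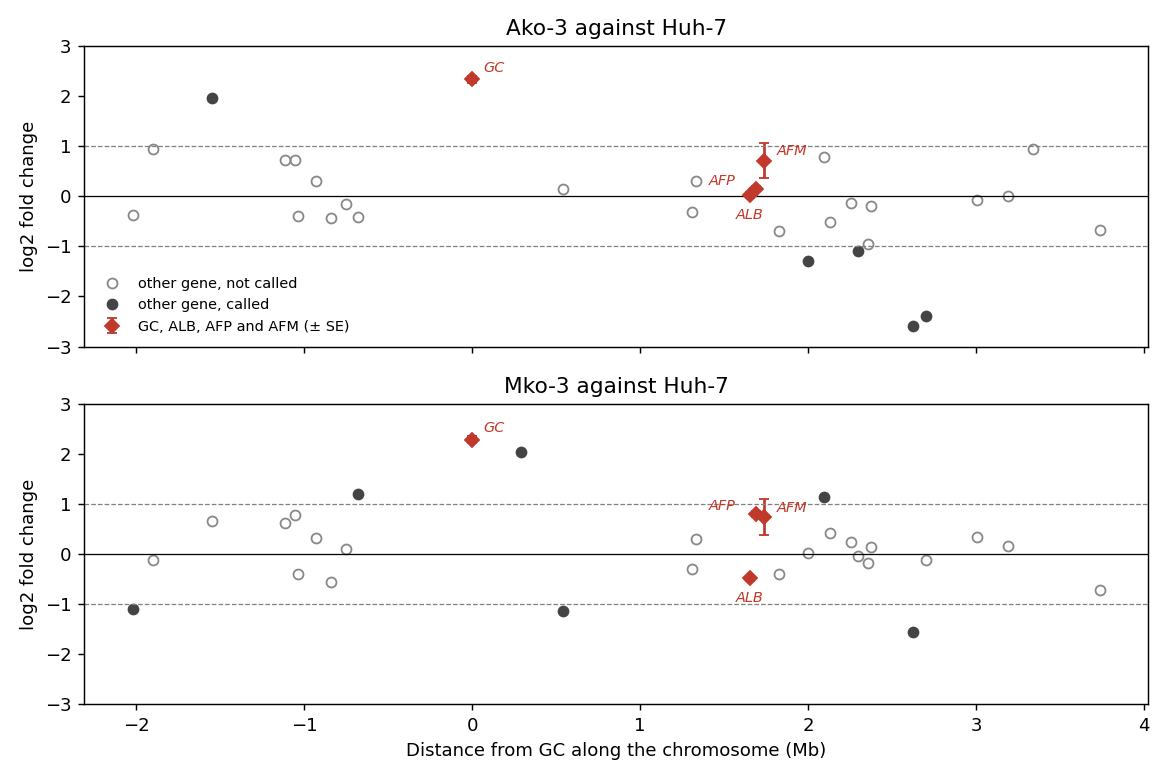
Log2 fold change of the 27 other genes tested near the family (circles, filled where both thresholds were passed) and of GC, ALB, AFP and AFM (diamonds with SE) against the distance from GC in Mb, in Ako-3 (top) and Mko-3 (bottom) against Huh-7 cells. GC stands above the 27 other genes in both panels, while the genes on each side of it lie on both sides of 0. GC was chosen with its values known, so its place among them is a description. In Mko-3, NPFFR2 came close to it, at 2.02 (SE 0.49).

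Within 0.5 Mb of AHSG and FETUB on chromosome 3, 14 of 36 other genes were tested against Huh-7. None was upregulated in either knockout, and 2 were downregulated in Ako-3 (5.0% of all genes) and 3 in Mko-3 (7.22%). The median log2 fold change was -0.32 and -0.57. DNAJB11, which encodes a chaperone of the endoplasmic reticulum and lies before AHSG, had 0.83 in Ako-3 (adjusted p = 1.4e-08) and 0.89 in Mko-3 (adjusted p = 2.3e-09, edgeR), short of the fold threshold. KNG1, the kininogen gene, a further cystatin superfamily member beyond FETUB, had 0.48 in Ako-3 (adjusted p = 0.011) and -0.51 in Mko-3 (adjusted p = 0.0084, edgeR), also short of it.

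Beside the list counts below stand the shares of all genes past both thresholds. They were 3.52% up and 5.0% down in Ako-3 and 3.82% and 7.22% in Mko-3 against Huh-7. In Mko-3 against Ako-3 they were 2.26% and 3.47%. Liver transcription factors were followed as a list of 18 genes, all of them tested for expression. Whether they act on the promoters of the 9 genes was not tested. In Ako-3 cells 0 passed both thresholds (edgeR). CEBPB had -0.75 there (adjusted p = 1.6e-08), ONECUT2 had -0.77 (adjusted p = 8.0e-06) and HNF4A had 0.70 (adjusted p = 3.4e-09, edgeR). In Mko-3 cells 2 fell: CEBPB, which drives acute-phase genes, from 465 to 192 mean CPM, at -1.29 on the log2 scale (SE 0.07, adjusted p = 2.6e-12, edgeR), and DBP, a circadian factor named for the albumin D site, from 27.0 to 11.1 mean CPM, at -1.30 on that scale (SE 0.12, adjusted p = 2.6e-08, edgeR). The list's median was -0.11 and -0.24.

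Known repressors of AFP were listed as 4 genes. None passed both thresholds in either knockout. ZHX2 had 0.50 in Ako-3 (adjusted p = 3.8e-06) and 0.25 in Mko-3 (adjusted p = 0.0038, edgeR). The list's median was 0.38 in Ako-3 and 0.44 in Mko-3.

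Of 16 other plasma carrier genes, 13 were tested. In Ako-3 cells 4 rose and 1 fell, with a median log2 fold change of 0.61. SERPINA7, which encodes thyroxine-binding globulin, rose by 2.14 (SE 0.11, adjusted p = 3.4e-12, edgeR), from 7.49 to 33.2 mean CPM, and HP, the haptoglobin gene, by 1.53 (SE 0.08, adjusted p = 3.5e-12, edgeR), from 37.8 to 110 mean CPM. HPX, the hemopexin gene, rose by 1.20 and ORM2, an orosomucoid gene, by 1.04, which was 0.99 without Ako-3 replicate 3. SHBG, the sex hormone-binding globulin gene, fell by 1.62 (SE 0.34), at low levels, from 2.08 to 0.69 mean CPM. HP and ORM2 have near-identical copies, so their values are uncertain.

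In Mko-3 cells 1 of the 13 rose and 2 fell, with a median of -0.29. SERPINA7 rose by 1.42 (SE 0.12, adjusted p = 2.6e-09, edgeR), to 20.2 mean CPM. HP fell by 1.65 (SE 0.11, adjusted p = 1.3e-10, edgeR), and SHBG fell by 1.51 (SE 0.35), to 0.74 mean CPM. HPX and ORM2 had 0.01 and -0.02. In Mko-3 against Ako-3 cells 0 rose and 4 fell, with a median of -0.90, among them HP by 3.18, HPX by 1.19 and ORM2 by 1.07.

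**Figure D5:**
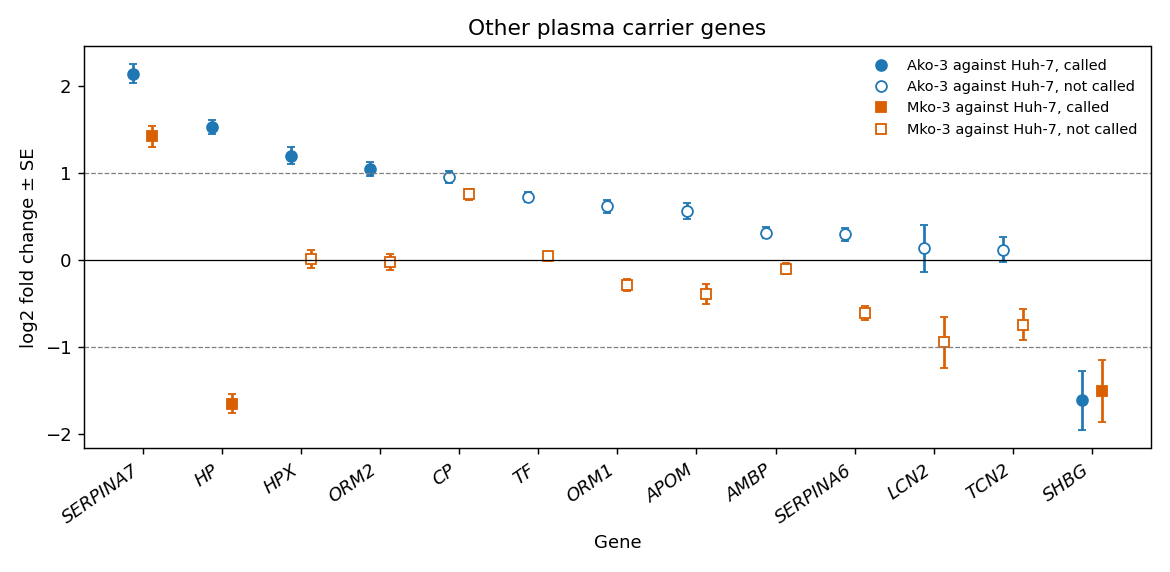
Log2 fold change with SE of the 13 other plasma carrier genes tested, in Ako-3 (circles) and Mko-3 (squares) against Huh-7 cells, filled where both thresholds were passed. SERPINA7 is raised in both knockouts, HP is raised in Ako-3 and lowered in Mko-3, and SHBG, at only 2.08 mean CPM in Huh-7, is lowered in both.

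Genes that handle the ligands of these carriers were counted in 3 lists. Of 11 genes for vitamin D activation and albumin recycling 9 were tested and 0 passed both thresholds in any comparison. FCGRT, the neonatal Fc receptor gene that recycles albumin, had 0.30 in Ako-3 (adjusted p = 0.00075) and -0.14 in Mko-3 (adjusted p = 0.087, edgeR), and its partner B2M had -0.07 and 0.14. Of 22 retinoid genes 17 were tested, with 1 up and 0 down in Ako-3 and 0 up and 3 down in Mko-3 against Huh-7, and 1 up (CRABP2) and 3 down in Mko-3 against Ako-3. RBP2, a cellular retinol-binding protein gene, rose by 1.34 in Ako-3 (adjusted p = 3.8e-12) and fell by 1.02 in Mko-3 (adjusted p = 1.3e-09, edgeR), a call lost without Huh-7 replicate 1, Mko-3 replicate 2 or Mko-3 replicate 3, at -0.98, -1.0 and -0.94. The other two that fell in Mko-3, RBP7 by 2.53 and RDH16 by 1.76, were below 3 mean CPM in every group. Of 9 thyroid hormone genes 4 were tested, and DIO1, an iodothyronine deiodinase gene, fell by 1.89 in Mko-3 (adjusted p = 6.8e-07, edgeR) and had -0.96 in Ako-3. The Ako-3 value passed both thresholds with upper quartile scaling, at -1.01, and without Huh-7 replicate 2, at -1.14. The medians of these 3 lists were -0.07, -0.20 and -0.03 in Ako-3 and -0.14, -0.27 and -0.20 in Mko-3.

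Genes of the glypican and heparan sulfate list numbered 23, with 18 tested. In Ako-3 cells 0 rose and 2 fell: GPC4, the glypican gene beside GPC3 on the X chromosome, by 1.14 (adjusted p = 4.5e-07) and NOTUM, which cleaves glypicans from the membrane, by 2.12 (adjusted p = 1.3e-07, edgeR). In Mko-3 cells 0 rose and NOTUM alone fell, by 1.25 (adjusted p = 7.1e-06, edgeR), and the list's median was -0.20 and -0.04. Of 10 other cystatin superfamily genes 4 were tested against Huh-7, with a median of 0.41 in Ako-3 and -0.34 in Mko-3, and CSTA rose by 1.77 in Ako-3 (adjusted p = 1.3e-06) and had -0.54 in Mko-3 (adjusted p = 0.18, edgeR).

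Among 14 oncofetal and progenitor genes other than AFP and GPC3, 11 were tested. None passed both thresholds in Ako-3, and 2 rose in Mko-3: EPCAM, an epithelial adhesion gene, by 1.17 (adjusted p = 4.3e-11) and KRT19, a biliary keratin gene, by 2.92 (adjusted p = 1.8e-16, edgeR), from 9.42 to 71.8 mean CPM. Of 24 mature hepatocyte genes, 4 of 19 tested rose and 0 fell in Ako-3, APOA2 by 1.02 (0.98 without Ako-3 replicate 2) and APOH by 1.23 among them, and in Mko-3 1 of 18 rose and 3 fell, among them FGG by 1.25 and ASGR1 by 1.12. The medians were 0.25 and 0.39 in Ako-3 and 0.37 and -0.25 in Mko-3 for these 2 lists. Of the 17 markers of other cell types 7 were tested against Huh-7 and 0 passed both thresholds, with medians of 0.44 and -0.27, and 2 of 6 fell in Mko-3 against Ako-3 cells. The endothelial marker PECAM1 had 77.6, 105.7 and 51.1 mean CPM in Huh-7, Ako-3 and Mko-3.

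The genes with the most similar course over the 9 libraries were named by the root mean square difference of centred log2 CPM, among 6271 or 6272 genes. The nearest to ALB was ACBD5, a peroxisomal membrane protein gene, at 0.053, the nearest to AFP was HIGD1A, a mitochondrial protein gene, at 0.059, and the nearest to GPC3 was C1orf115 at 0.027. RBP4 was closest to MDK, the midkine gene, at 0.032, and TTR to MT-CYB, a mitochondrial gene, at 0.086. The nearest to GC was DNAJA1, a chaperone gene, at 0.336, with mean CPM of 73.5, 231 and 253 in Huh-7, Ako-3 and Mko-3. AHSG was closest to CPVL at 0.172 and then to APOH at 0.192. The distance grows with a gene's own spread over the libraries, and as a share of that spread the nearest gene lay at 14.6% for GPC3, 16.9% for AFP, 30.7% for GC and 42.8% for AFM, whose nearest gene was TMEM127. These are descriptions of 9 libraries in 3 groups, and many genes share such a course.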

How the data were processed

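RNA of 3 groups of cells, Huh-7, Ako-3 and Mko-3, with 3 libraries each, was analysed. Per the labels and the methods, poly-T selected mRNA was sequenced as paired reads, and HISAT2 2.0.5 placed them on hg38 before the authors made a table of raw counts per gene with featureCounts 1.5.0-p3, and the submitters' processing notes name these versions. The authors also deposited FPKM per gene and library, and how these were scaled is not given in the sources used here. The strand setting and the read filters are not given in the sources used here. Replicates are libraries of 1 line, so p-values measure only the spread between these libraries, and the labels name no batch.

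Each comparison was fitted on its own 6 libraries with the robust quasi-likelihood test of edgeR 4.0.16 (R 4.3.3), after TMM scaling and filterByExpr (minimum count 10), with Benjamini-Hochberg adjustment over all genes tested. Calls needed a log2 fold change of 1 or more in size and an adjusted p no higher than 0.05. SE is the log2 fold change divided by the square root of F. CPM were TMM-normalized over all 9 libraries. Totals of 14638727 to 20179760 counts leave wide errors for genes near 10 counts. The smallest p of an exact permutation test of 3 against 3 libraries is 0.1. The scripts were tested on simulated data.

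The 9 genes and the 11 lists of other genes were chosen with earlier results of these data known. Of each list, at most 4 genes with the smallest adjusted p among those called in either knockout against Huh-7 were named, and otherwise the 2 with the highest mean FPKM. Expressed neighbours (mean FPKM of at least 1) and, for each of the 9 genes, the 2 genes of mean log2 CPM of at least 5 with the most similar course were found too. HNF4A, ONECUT2, AC068631.1, SHBG, CRABP2, EREG, AREG, CXCL3, CXCL6, NPFFR2, ADAMTS3 and SULT1B1 were named after their values were seen. Some genes that the rule names are not reported here. Alternatives were DESeq2 1.42.0, other scalings, filters, thresholds and fits, and leaving out each library.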

Additional observations from a re-analysis of the deposited data

Results flagged for a closer look

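In 3 of the 9 genes every Ako-3 library lay above and every Mko-3 library below all Huh-7 libraries. Groups did not overlap in 57.8% of all genes tested in Ako-3 and 60.7% in Mko-3 against Huh-7. The share of all genes with this opposite course was not computed, so nothing is read from the count. The differences between the knockouts' effects were not tested, since the genes were chosen with their values known and share the control libraries. The log2 fold change was 0.18 in Ako-3 and -0.16 in Mko-3 for RBP4 (0.25 and -0.09 without Huh-7 replicate 1), 0.18 and -0.26 for GPC3, and 0.90 and -0.96 for AHSG.

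Among the named genes of the lists, 11 were past both thresholds in the edgeR fit of Mko-3 against Ako-3 cells. Of all genes tested there, 2.26% were past them upward and 3.47% downward. All but PECAM1 were named for a call against Huh-7 in these same libraries, so the count is a description and not a test. The log2 fold change was -3.18 for HP, -2.35 for RBP2, -2.32 for CSTA, -2.14 for RBP7, -1.78 for APOH, -1.22 for FGG, -1.19 for HPX, -1.15 for RDH16, -1.07 for ORM2 and -1.05 for PECAM1, and 2.42 for KRT19. RDH16 did not pass without Mko-3 replicate 1, at -0.87 (adjusted p = 0.070, edgeR). RBP7 and RDH16 were below 3 mean CPM in each group.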

How the results depend on the processing

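The 27 fold changes of the 9 genes were recomputed, giving 428 alternative values, and 5 of these turned a sign, all of values near 0: ALB in Ako-3 (0.02; -0.03 with upper quartile scaling and -0.004 without Huh-7 replicate 2), FETUB in Ako-3 (-0.10; 0.01 without Ako-3 replicate 3) and AFM between the knockouts (0.02; -0.01 without Ako-3 replicate 3 and -0.16 without Mko-3 replicate 3). No called value was reversed. Where 10 counts were required in every library, FETUB was not tested in the comparisons with Mko-3, nor AFM in those with Huh-7. The FETUB value in Mko-3 was -0.51 as a log2 ratio of mean FPKM + 1.

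Requiring at least 10 counts in every library gave 841 called genes, beside 1345, in Ako-3 and 1113, beside 1739, in Mko-3 against Huh-7 and 511, beside 890, between the knockouts, with 1 of the 9 genes in each of the last 2 comparisons and 5 called neighbouring genes, beside 9, in Mko-3 against Huh-7. At the adjusted p alone, 7880, 8509 and 6462 genes passed, of the 9 genes 6, 8 and 7, of the list genes 78, 81 and 93, and of the neighbouring genes 27, 24 and 17. Leaving out 1 library gave 1254 to 1637 genes in Ako-3 and 1623 to 2106 in Mko-3 against Huh-7 and 895 to 964 between the knockouts, with 1 to 1, 2 to 3 and 2 to 2 of the 9 genes, 13 to 16, 16 to 18 and 18 to 21 list genes, and 8 to 9, 7 to 9 and 7 to 9 neighbouring genes.

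Deviations of same-numbered libraries from the group means had correlations of -0.36 to -0.23 for Ako-3 and Huh-7. They ran from -0.18 to 0.28 for Mko-3 and Huh-7 and from -0.14 to 0.25 for Mko-3 and Ako-3. With 3 libraries in each group, these values show no steady pairing by number and cannot exclude one. With the replicate block, 1336, 1730 and 899 genes were called, and 1, 2 and 2 of the 9 genes.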
